A study of Mus musculus with 6 samples.

Results

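The genes described here are 8 components of hepatic bile acid sensing, chosen by name and matched by symbol to the Ensembl identifiers of the count files. All 8 were found among the 54232 genes listed, and 7 had enough counts to be tested among 13986 genes. They are the bile acid receptor FXR (Nr1h4) and its partner RXR-alpha (Rxra), the repressor SHP (Nr0b2) and its target LRH-1 (Nr5a2), the FGF15 receptor FGFR4 (Fgfr4) with its co-receptor beta-klotho (Klb), the FXR-inducible gene Osgin1, and the membrane bile acid receptor TGR5 (Gpbar1). RNA was sequenced from liver of male C57BL/6 mice on chow, aged 8 to 10 weeks, in 2 groups of 3 libraries. DKO mice (Fxr-/-Xbp1LKO) lacked FXR and had a liver-specific knockout of XBP1, and SKO mice (Fxr-/-Xbp1fl/fl) lacked FXR and carried floxed Xbp1 alleles without that knockout. XBP1 drives genes of the unfolded protein response, and the comparison addresses the role of hepatic XBP1 where FXR is absent. Both groups were FXR-null, and mice with FXR were not analysed here, so no value below measures an effect of FXR. The Cre line that removed Xbp1 and the exons deleted from Xbp1 or Nr1h4 are not named in the labels. Titles of all 3 DKO libraries and of SKO replicate 3 carry 2 numbers, whose meaning, pooled animals or other, is not stated.

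In a liver with FXR, bile acids bind the FXR-RXR dimer, which induces SHP. SHP has no DNA-binding domain and binds other nuclear receptors, among them LRH-1, which otherwise drives the bile acid synthesis genes Cyp7a1 and Cyp8b1. In the ileum FXR induces the hormone FGF15, which reaches the liver in portal blood and represses Cyp7a1 through FGFR4 and beta-klotho. TGR5 is a separate, G-protein-coupled bile acid receptor found in the liver mainly on non-parenchymal cells.

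Of the 7 genes tested, SHP, LRH-1 and beta-klotho were lower in DKO than in SKO livers, and Fgfr4, Nr1h4, Rxra and Osgin1 were not called. That is 3 lower and 0 higher of 7, where 9.70% of all genes were lower and 10.3% higher. In those 3 genes every DKO library lay below every SKO library, as in 19.4% of all genes, and in 0 of the 7 every DKO library lay above, as in 20.2%. Groups without overlap in either direction were thus found for 3 of the 7, and for 39.6% of all genes. The promoters of the 3 genes that fell are shown because their values are the ones that moved, with short motifs of LRH-1, of nuclear receptors and of XBP1 marked. Each is the 250 bases before the RefSeq start site, 5′ to 3′ on the gene's own strand, in GRCm38.p6, the assembly of mm10. Capitals mark TCAAGG, the core of the LRH-1 element, AGGTCA, the core nuclear receptor motif, and CCACG, the XBP1-contacted part of the ER stress element, each searched on both strands.
Nr0b2 (chr4:133553126-133553375, plus strand): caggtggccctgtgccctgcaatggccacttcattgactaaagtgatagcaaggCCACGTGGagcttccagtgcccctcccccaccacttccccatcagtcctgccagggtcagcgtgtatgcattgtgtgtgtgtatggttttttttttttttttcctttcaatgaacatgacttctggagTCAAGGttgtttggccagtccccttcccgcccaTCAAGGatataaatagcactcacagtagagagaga
Nr5a2 (chr1:136960449-136960698, minus strand): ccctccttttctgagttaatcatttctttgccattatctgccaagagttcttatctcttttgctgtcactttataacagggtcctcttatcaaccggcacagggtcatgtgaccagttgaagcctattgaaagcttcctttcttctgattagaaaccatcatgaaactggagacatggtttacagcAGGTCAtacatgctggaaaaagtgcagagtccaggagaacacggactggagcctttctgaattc
Klb (chr5:65348161-65348410, plus strand): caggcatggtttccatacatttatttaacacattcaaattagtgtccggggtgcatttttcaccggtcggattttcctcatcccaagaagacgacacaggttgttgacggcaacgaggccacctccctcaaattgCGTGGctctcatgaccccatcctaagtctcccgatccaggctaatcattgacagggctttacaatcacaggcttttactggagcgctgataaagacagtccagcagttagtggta
The Nr0b2 window held TCAAGG at -68 and again at -35, both on the gene's strand, and a CCACG on each strand, at -196 and -193, which overlap within the E-box CACGTG. The letters TCAAGG occurred in 12.5% and CCACG in 28.3% of 32851 promoter windows of the same length. The Nr5a2 window held an AGGTCA at -64, a sequence found in 14% of windows. A second RefSeq start of Nr5a2 had 1 CCACG match and neither of the receptor letters. The Klb window held a single CCACG match, on the opposite strand at -115. Its RefSeq start lies downstream of the GENCODE gene start at 65348314. The perfect inverted-repeat FXR element (IR-1), which is in 0.00609% of windows, the full ER stress element (0.113%) and the XBP1 element TGACGTGG (0.563%) were not found in the windows of any of the 8 genes. AGGTCA and CCACG were also in windows of genes that were not called, whereas among the 8 genes TCAAGG was found only in the Nr0b2 window. Fgfr4 held CCACG, counting both strands, at -187, -94 and -18. Rxra held AGGTCA at -87 and -48 in 1 window and CCACG at -169 in another, and Nr1h4 held AGGTCA at -214. AGGTCA and CCACG thus do not set the genes that fell apart from the others, and TCAAGG was absent from the Nr5a2 and Klb windows too. All these matches describe letters in these windows and say nothing of binding.

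Xbp1 was counted at 95.7, 67.0 and 68.2 CPM, read counts scaled to library size, in the 3 DKO libraries and at 225, 260 and 254 CPM in the 3 SKO libraries. The scaling used TMM factors, and libraries held 16966422 to 21107674 counts. Differences are log2 fold changes of DKO over SKO ± SE from edgeR's quasi-likelihood test, and called genes are those with an adjusted p below 0.05 over all 13986. By that rule 20.0% of all genes were called. The hepatocyte markers Alb and Apoa1 were abundant in every library. Of 8 hepatocyte markers 5 were lower in DKO, with a summed level of 53997.5 to 66692.5 CPM in DKO and 84087.8 to 111238.2 CPM in SKO. Most of that sum was Alb, with a mean of 35760 CPM in DKO and 66410 CPM in SKO. Without DKO replicate 1, 1 hepatocyte marker was called higher. Of 8 stellate cell markers 6 were higher (summed level 645.3 to 922.2 CPM in DKO and 395.6 to 451.0 CPM in SKO), as were 3 of 9 Kupffer cell, 4 of 7 monocyte and 3 of 8 cholangiocyte markers, while edgeR called 0 of 9 sinusoidal endothelial markers. The hepatocyte count went down to 1 without SKO replicate 2, the stellate count to 2 or 3 without any SKO library, and the Kupffer count ran from 2 to 7 as libraries were left out. The monocyte count was 2 without DKO replicate 1 or any SKO library, and the cholangiocyte count was 1 without SKO replicate 2 or 3 and 2 without DKO replicate 1. All 8 hepatocyte, 9 Kupffer and 8 stellate markers had counts. In whole liver, fewer hepatocytes and less of a transcript per hepatocyte cannot be told apart, and the part that cell mixture has in the falls below was not tested.

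Nr1h4 (ENSMUSG00000047638, chromosome 10, 89454234 to 89533585, minus strand), which encodes FXR, was counted in every library although both groups are FXR-null by label. It stood at 93.7, 97.7 and 100.4 CPM in DKO libraries and 98.0, 92.7 and 104.6 CPM in SKO libraries. The groups overlapped throughout. The log2 fold change was -0.02 ± 0.07, with a 95% interval of -0.18 to 0.14 (edgeR adjusted p = 0.891). Counts over the whole gene do not show which exons the reads came from, so they do not check the FXR-null genotype. Rxra (ENSMUSG00000015846, chromosome 2, 27676440 to 27762957), which encodes the obligate partner of FXR and of many other receptors, had 567, 651 and 582 CPM in DKO and 588, 613 and 653 CPM in SKO. These also overlapped, with a log2 fold change of -0.04 ± 0.10 and an interval of -0.26 to 0.17 (edgeR adjusted p = 0.796). Within each library, the ratio of Nr1h4 to Rxra, both per kilobase of exon, was 0.392, 0.356 and 0.409 in DKO and 0.396, 0.359 and 0.380 in SKO.

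Nr0b2 (ENSMUSG00000037583, chromosome 4, 133553376 to 133556536, plus strand), the gene of the repressor SHP and a classic FXR target, fell by 0.95 ± 0.15 on the log2 scale in DKO livers. It was counted at 7.18, 7.27 and 6.53 CPM in DKO and at 10.9, 15.8 and 13.6 CPM in SKO, from 126 to 171 reads in DKO and 172 to 289 reads in SKO. Every DKO library lay below every SKO library. The means were 7.0 ± 0.404 CPM in DKO and 13.5 ± 2.46 CPM in SKO (SD, n = 3 each), a level 48.0% lower in DKO (edgeR adjusted p = 0.00217, 95% interval of the log2 fold change -1.27 to -0.62). SHP kept its call in each fit with a library left out, with log2 fold changes from -1.07 to -0.82 and adjusted p-values from 0.00118 to 0.0122. It was also called under each other scaling and test tried, and when SKO replicate 3 was the only SKO library used (log2 -0.97, edgeR adjusted p = 0.0275).

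Nr5a2 (ENSMUSG00000026398, chromosome 1, 136842571 to 136960448, minus strand), which encodes LRH-1, was lower in DKO by a smaller step. It was counted at 67.4, 72.6 and 66.4 CPM in DKO and 82.1, 80.3 and 81.1 CPM in SKO, with no overlap. The SKO libraries lay very close together, with an SD of 0.892 CPM around a mean of 81.2 CPM, against 68.8 ± 3.33 CPM in DKO (n = 3 each). The log2 fold change was -0.24 ± 0.07, with an interval of -0.39 to -0.09 (edgeR adjusted p = 0.0315). This call held without DKO replicate 2 (edgeR adjusted p = 0.0298) but ended without each of the other 5 libraries, with edgeR adjusted p-values of 0.0649 to 0.115. It also ended with no filter, with upper-quartile factors and with total counts alone. Under total-count scaling the Nr5a2 log2 fold change was -0.02, and the median of all genes itself moved by 0.23 on the log2 scale. Relative to that median Nr5a2 was at -0.25. Subtracting the median undoes the change of scaling by construction, so this value is no separate support for the fall.

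The balance of SHP to LRH-1 within a library does not depend on how libraries are scaled. Per kilobase of exon, the Nr0b2 to Nr5a2 ratio was 0.555, 0.522 and 0.513 in DKO and 0.694, 1.03 and 0.875 in SKO. All 3 DKO ratios were below all 3 SKO ratios, and the DKO mean was 0.612 of the SKO mean, a value between 0.557 and 0.676 when a library was left out. No test was made of this ratio.

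**Figure D1:**
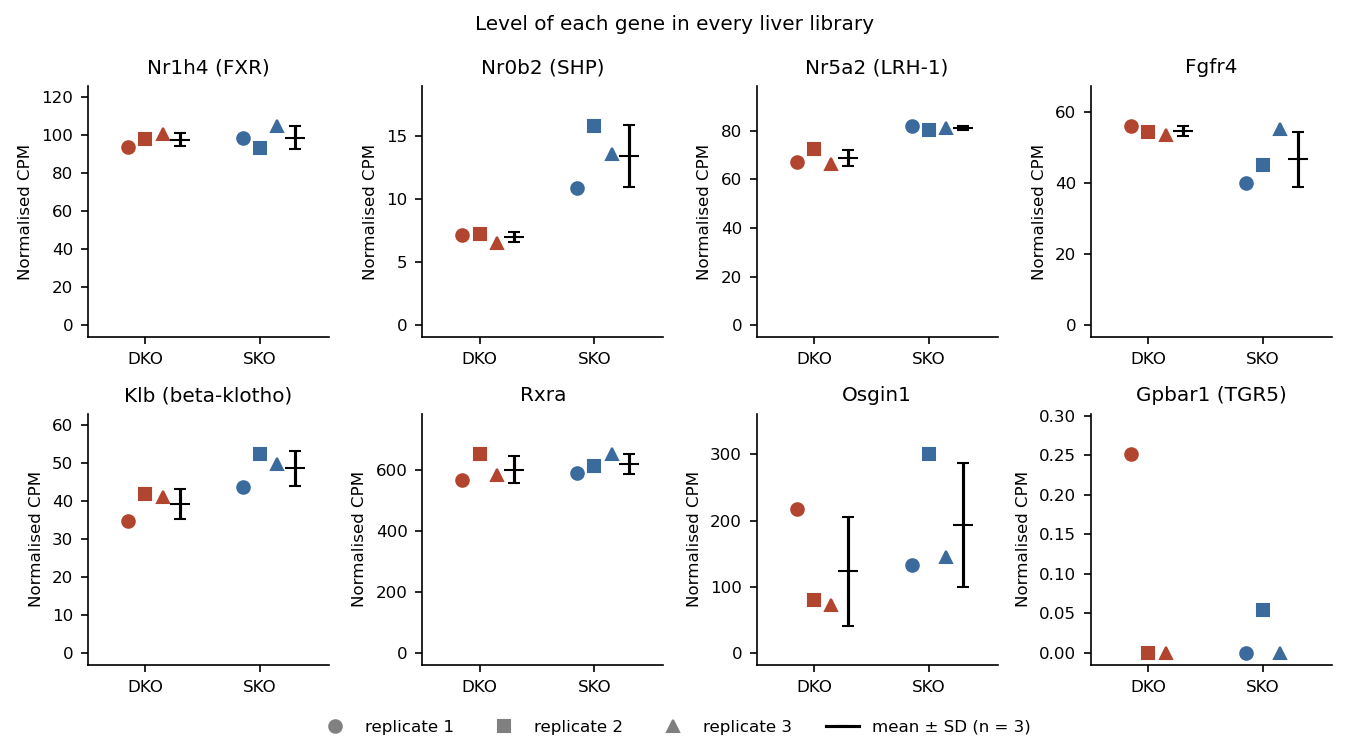
Each panel plots 1 gene in normalised CPM (vertical axis, which includes 0) for the 3 DKO libraries on the left and the 3 SKO libraries on the right, with the mean ± SD (n = 3) beside them except for Gpbar1, where most libraries are at 0. Nr0b2, Nr5a2 and Klb have no overlap between groups, while Osgin1 is high in DKO replicate 1 (218 CPM) and SKO replicate 2 (301 CPM).

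Klb (ENSMUSG00000029195, chromosome 5, 65348314 to 65384007, plus strand), the beta-klotho co-receptor that FGF15 and FGF21 both need, was lower in DKO. It had 34.7, 41.7 and 41.2 CPM in DKO libraries and 43.6, 52.5 and 49.8 CPM in SKO libraries. The highest DKO library and the lowest SKO library were close, but the groups did not overlap. The log2 fold change was -0.31 ± 0.10, with an interval of -0.53 to -0.10 (edgeR adjusted p = 0.0462), a level 19.3% lower. The call was near the threshold. It ended without DKO replicate 1 or 3 or SKO replicate 2 or 3 (edgeR adjusted p from 0.0282 to 0.166 over the 6 libraries left out), with DESeq2 (adjusted p = 0.0523), with limma-voom (adjusted p = 0.0582) and under 2 other scalings, upper-quartile and total-count.

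Fgfr4 (ENSMUSG00000005320, chromosome 13, 55152640 to 55168759, plus strand), the receptor tyrosine kinase that signals with beta-klotho, was not called in either direction. It was counted at 56.0, 54.2 and 53.3 CPM in DKO and 39.8, 45.0 and 55.0 CPM in SKO. SKO replicate 3 lay within the DKO range and the other SKO libraries below it. The log2 fold change was 0.23 ± 0.11, with an interval of -0.01 to 0.46, which missed the threshold (edgeR adjusted p = 0.164). Leaving out SKO replicate 3, Fgfr4 was called higher in DKO (log2 0.36, edgeR adjusted p = 0.0285), and with SKO replicate 3 as the only SKO library it was -0.02.

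Per kilobase of exon, beta-klotho stood to Fgfr4 at 0.483, 0.599 and 0.601 in DKO and at 0.852, 0.909 and 0.705 in SKO. The 3 DKO ratios were thus below the 3 SKO ratios, with means of 0.561 ± 0.0676 in DKO and 0.822 ± 0.105 in SKO (SD, n = 3 each). The DKO mean was 0.683 of the SKO mean, and between 0.637 and 0.730 with a library left out. Like the SHP to LRH-1 ratio, this value is unaffected by library scaling and was not tested.

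**Figure D2:**
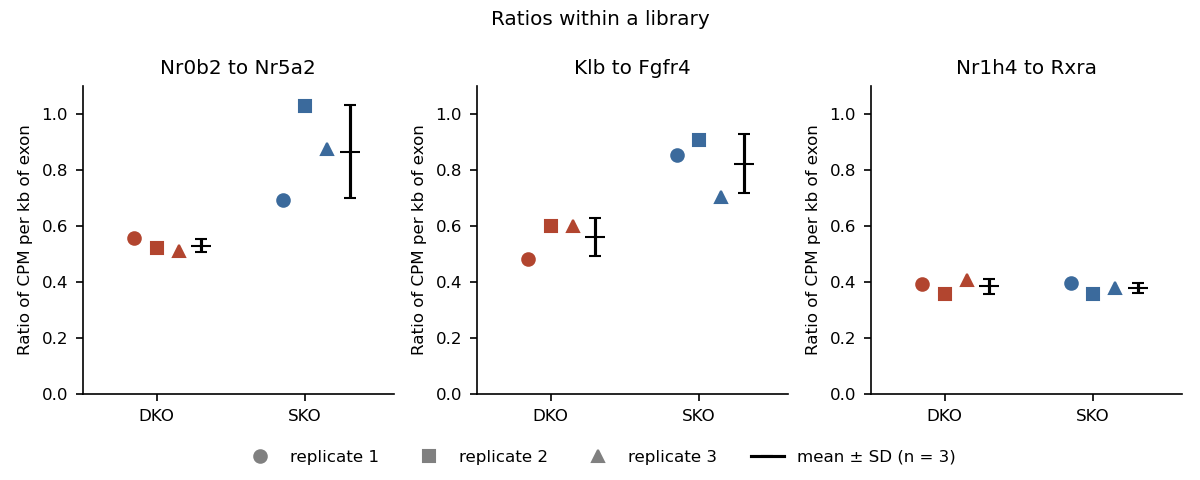
Ratios of CPM per kilobase of exon (vertical axis, from 0) within each DKO library (left) and SKO library (right), with the mean ± SD of 3 libraries. The Nr0b2 to Nr5a2 and Klb to Fgfr4 ratios are lower in all DKO libraries (up to 0.555 and 0.601) than in all SKO libraries (from 0.694 and 0.705), and the Nr1h4 to Rxra ratios overlap.

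Osgin1 (ENSMUSG00000074063, chromosome 8, 119434124 to 119446256), an oxidative stress-responsive growth inhibitor that FXR and NRF2 can both induce, varied more between libraries than any other gene tested of the 8. It was counted at 218, 79.4 and 72.5 CPM in DKO and 133, 301 and 145 CPM in SKO. DKO replicate 1 exceeded 2 of the SKO libraries and the other DKO libraries lay below them all. The coefficient of variation was 66.6% in DKO and 48.5% in SKO, against 1.1% to 18.3% for the other 6 tested genes in either group. The log2 fold change of -0.65 ± 0.62 has an interval of -2.30 to 1.01 (edgeR adjusted p = 0.534), so differences of either sign are within it. It was -1.35 without DKO replicate 1 and -0.18 without SKO replicate 2. Of NRF2 and its targets, 6 of 13 were higher in DKO and 0 lower, where 10.3% of all genes were higher and 9.70% lower. The higher ones included the detoxification genes Nqo1 (log2 0.87 ± 0.14), Gsta1 (log2 2.23 ± 0.36) and Gstm1 (log2 0.82 ± 0.15). Whichever library was left out, 4 or 5 were higher, and 1 was lower without DKO replicate 1. Nfe2l2, which encodes NRF2 and was named after its values were seen, had a log2 fold change of 0.02 ± 0.09.

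Gpbar1 (ENSMUSG00000064272, chromosome 1, 74278550 to 74279624), the TGR5 gene, was at the edge of detection. It had 6, 0 and 0 reads in DKO libraries and 0, 1 and 0 reads in SKO libraries, and it was not tested. The ratio of normalised counts was 4.88, with a 95% counting interval of 0.593 to 225, and all DKO reads came from DKO replicate 1. A count of 0 allows up to 3 counts, which is 0.146 to 0.191 CPM at the depths of the libraries at 0, for counting error only. Csf1r, a macrophage receptor gene named after its values were seen, averaged 127 CPM in DKO and 87.1 CPM in SKO in the same libraries and was not called (edgeR adjusted p = 0.0732).

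**Figure D3:**
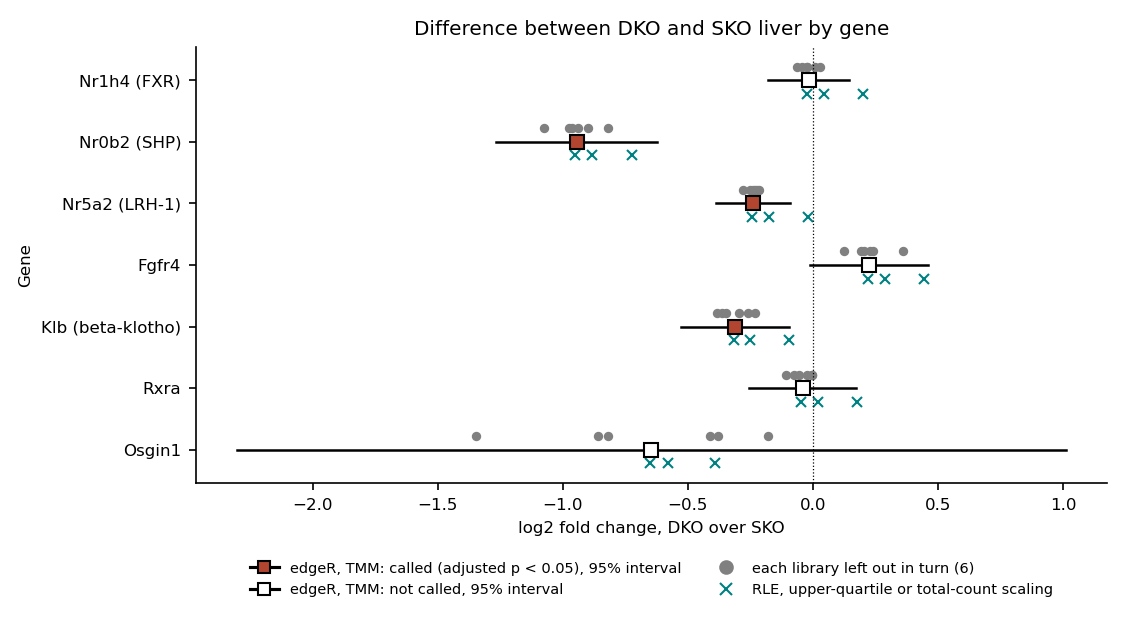
Log2 fold change of DKO over SKO (horizontal axis) for the 7 tested genes, with the edgeR 95% interval as a line, filled squares for called genes and open squares for the others, grey dots for fits with a library left out and crosses for other scalings. The Nr0b2 points all lie at -0.72 or below, the Nr5a2 and Klb points come close to 0 under total-count scaling (-0.02 and -0.10), and the Osgin1 interval spans 0 widely.

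Levels can be set beside each other per kilobase of exon. In DKO Rxra was highest at 109.9 ± 8.13 CPM per kilobase, then Osgin1 at 46.1 ± 30.7, Nr1h4 at 42.2 ± 1.45, Fgfr4 at 15.4 ± 0.384, Nr5a2 at 11.7 ± 0.564, Klb at 8.62 ± 0.856 and Nr0b2 at 6.18 ± 0.357 (SD, n = 3). In SKO the order was Rxra at 113 ± 5.99, Osgin1 at 72.2 ± 35.0, Nr1h4 at 42.7 ± 2.58, Nr5a2 at 13.8 ± 0.151, Fgfr4 at 13.2 ± 2.18, Nr0b2 at 11.9 ± 2.17 and Klb at 10.7 ± 1.01. By their means and SDs, Osgin1 and Nr1h4 lay within the spread of Osgin1 in both groups. In SKO the neighbours Nr5a2, Fgfr4, Nr0b2 and Klb each lay within the larger SD of the pair, whereas in DKO each neighbouring pair from Fgfr4 down lay further apart than both SDs. Among 13982 genes with a length, the level of Nr0b2 ranked 4861 in DKO and 3024 in SKO, and that of Rxra 378 in DKO and 423 in SKO. The Nr0b2 level was above that of the median gene, which was 3.32 CPM per kilobase in DKO and 3.27 in SKO.

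The genes whose profile over the 6 libraries was most like each called gene were found by the root mean square difference of centred log2 CPM, among genes of at least 5 CPM. For Nr0b2 these were Gcnt4 (0.0938), Sec22c (0.103) and Rnf152 (0.105), where the spread of Nr0b2 itself was 0.469. Gcnt4, a glycosyltransferase gene, had 4.62, 4.74 and 4.51 CPM in DKO and 6.80, 10.2 and 10.5 CPM in SKO. For Nr5a2 they were Eci2 (0.0220), Otud6b (0.0232) and Cpsf4 (0.0234), and for Klb Rnf138 (0.0267), Mthfd1 (0.0336) and Inca1 (0.0377), on spreads of 0.126 and 0.192. For Osgin1, which was added after its values were seen, the nearest gene was the arrestin-domain gene Arrdc3 (0.263 on a spread of 0.728), at 184.5, 109 and 89.0 CPM in DKO and 132.5, 316 and 120.2 CPM in SKO. The same 2 libraries, DKO replicate 1 and SKO replicate 2, were highest for Arrdc3 and Osgin1. Arrdc3 was picked for its likeness over these libraries, so this is no separate observation.

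Some hepatic FXR target genes were lower. Of 23 tested of a list of 25, 8 were lower, 2 higher and 13 not called in DKO. Over all genes, 9.70% were lower and 10.3% higher. The list median log2 fold change was -0.29, where the median of all genes was 0.006 and that of the 8 hepatocyte markers -0.51. The list pools genes that FXR induces with genes repressed through it, such as Cyp7a1 and Cyp8b1. Its counts and median therefore have no single direction. The lower ones included the bile acid-CoA ligase gene Slc27a5 (log2 -1.14 ± 0.12), the lipid-sensing receptor gene Ppara (log2 -0.66 ± 0.07) and the phospholipid exporter gene Abcb4 (log2 -0.59 ± 0.08), and with a library left out 6 to 9 were lower. The higher ones were the heparan sulfate proteoglycan gene Sdc1 and the hormone gene Fgf21. Abcb11, the bile salt export pump and a classic FXR target, was named after its values were seen. It had 227, 317 and 316 CPM in DKO and 483, 408 and 329 CPM in SKO, with no overlap, and missed the threshold, at -0.50 ± 0.17 on the log2 scale (edgeR adjusted p = 0.0688), though it passed with DESeq2 (adjusted p = 0.00922), with no filter (edgeR adjusted p = 1.16e-05) and without SKO replicate 3 (edgeR adjusted p = 0.0391). The Abcb11 log2 fold change was -0.36 without DKO replicate 1 or SKO replicate 1, -0.29 with total counts alone and -0.21 with SKO replicate 3 as the only SKO library, and it was not called in these fits (edgeR adjusted p = 0.136, 0.182, 0.16 and 0.63). The bile acid exporter gene Slc51b had no count in any library.

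Among targets of LRH-1 and SHP, calls went both ways. Of 10 tested, 3 were lower, 1 was higher and 6 were not called, with a median of -0.14. Over all genes 9.70% were lower and 10.3% higher, with a median of 0.006. The sterol exporter subunit Abcg8 (log2 -0.59 ± 0.10) and the apolipoprotein gene Apoa1 (log2 -0.78 ± 0.18) were lower. Apoa1 lost its call without SKO replicate 2 or 3 (highest edgeR adjusted p 0.0749). In all, 1 gene was lower without SKO replicate 2 or 3, and 0 were higher without DKO replicate 2 or 3 or SKO replicate 2 or 3 by edgeR. Beside the SHP values, Cyp7a1 stood at 291, 853 and 806 CPM in DKO and 363, 491.5 and 646 CPM in SKO. Its lowest and highest libraries were both DKO. Cyp8b1 had 809, 1049 and 949 CPM in DKO and 995, 1213 and 1115 CPM in SKO, and neither gene was called (edgeR adjusted p = 0.638 and 0.195).

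The other nuclear receptors and their coregulators are read against the 20.0% of all genes called, 9.70% lower and 10.3% higher. Among 15 tested RXR paralogs and partners, 2 were lower and 0 higher: Ppara and the thyroid hormone receptor gene Thrb (log2 -0.64 ± 0.09), both called in each fit with a library left out. Of 25 coactivators and corepressors, 3 were lower and 1 higher, with the methyltransferase gene Kmt2c (log2 -0.35 ± 0.08) and the deacetylase gene Sirt1 (log2 -0.40 ± 0.11) lower and the chromatin remodeller gene Smarca4 higher (log2 0.26 ± 0.07). The number lower was 1 without DKO replicate 1 or any SKO library. Kmt2c lost its call without SKO replicate 3 (edgeR adjusted p = 0.0604). Sirt1 kept its call only without DKO replicate 2 (edgeR adjusted p up to 0.0912 in the other fits). Smarca4, the 1 higher gene, lost its call without DKO replicate 1 or 3 or SKO replicate 2 or 3 (edgeR adjusted p up to 0.109). Total-count scaling, which moves the median of all genes by 0.23 on the log2 scale, gave 3 higher and 2 lower of the RXR list and 8 higher and 0 lower of the coregulators, with 3848 higher and 539 lower over all genes. Of 6 other bile acid-responsive receptors tested, 0 were called by edgeR. The pregnane X receptor gene Nr1i2 (log2 -0.13 ± 0.11) and the constitutive androstane receptor gene Nr1i3 (log2 -0.23 ± 0.15) were the most abundant of these.

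On the ligand side, Fgf15 had no count in any of the 6 liver libraries, and the ileal markers Fabp6 and Cdx2 were also at 0. Of 4 genes of the ileal list tested, 1 was lower, the fatty acid-binding protein gene Fabp2 (log2 -1.74 ± 0.10). Fabp2 averaged 68.8 CPM in SKO liver, so it does not mark ileum in these libraries. FGF15 made in the ileum is not measured by liver RNA. Of 10 ligands, receptors and co-receptors tested, 3 were higher and 2 lower, where 10.3% of all genes were higher and 9.70% lower. Fgf21, a stress-induced hormone that signals through beta-klotho, rose to 3.19, 2.54 and 2.59 CPM in DKO, against 0.953, 1.48 and 1.01 CPM in SKO (log2 1.26 ± 0.25, edgeR adjusted p = 0.00796). Fgf1, a paracrine ligand, fell to 65.3, 94.8 and 81.9 CPM in DKO, against 133, 145 and 150.4 CPM in SKO (log2 -0.82 ± 0.13, edgeR adjusted p = 0.00281). Sdc1 rose by 0.61 ± 0.09 on the log2 scale, with 292, 241 and 272.5 CPM in DKO and 177, 174 and 175 CPM in SKO. All 3 kept their calls with any library left out. Named after their values were seen, Fgfr1 was higher (log2 0.85 ± 0.18) and the decoy receptor gene Fgfrl1 lower (log2 -0.42 ± 0.10), and both lost their calls without SKO replicate 2 (edgeR adjusted p = 0.0547 and 0.0529). Fgfr1 is known from mesenchymal as well as other cells, and stellate cell markers were higher in the same libraries. Their part in its rise was not tested.

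Inside the cell, 3 of 23 tested genes of the FGF receptor relay to ERK were higher and 1 was lower, a share called near the 20.0% of all genes. The kinase gene Src (log2 1.43 ± 0.22), the adaptor gene Gab2 (log2 0.83 ± 0.17) and the ERK1 gene Mapk3 (log2 0.25 ± 0.08) were higher, and Mapk3 lost its call without DKO replicate 1 or 3 or SKO replicate 2 or 3 (edgeR adjusted p up to 0.143). The 1 lower gene, Braf, named after its values were seen, was at -0.25 ± 0.08, and the number of lower genes ran from 0 to 3 as libraries were left out. Of 17 feedback and early response genes tested, 15 were not called, where 20.0% of all genes were called. The ERK feedback inhibitor Spry4 was lower (log2 -1.34 ± 0.30) and its paralog Spry1 higher (log2 0.66 ± 0.16). Spry4 lost its call without any DKO library or SKO replicate 3 (edgeR adjusted p up to 0.0737), and Spry1 without SKO replicate 3 (edgeR adjusted p = 0.0579). Dusp6, the ERK phosphatase gene used as a readout of FGF signalling, had 77.1, 28.0 and 40.5 CPM in DKO and 45.4, 54.9 and 38.7 CPM in SKO, a log2 difference of 0.07 ± 0.42 that was not called (edgeR adjusted p = 0.926). DKO replicate 1 held the highest value and DKO replicate 2 the lowest, and without DKO replicate 1 the log2 fold change was -0.44.

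**Figure D4:**
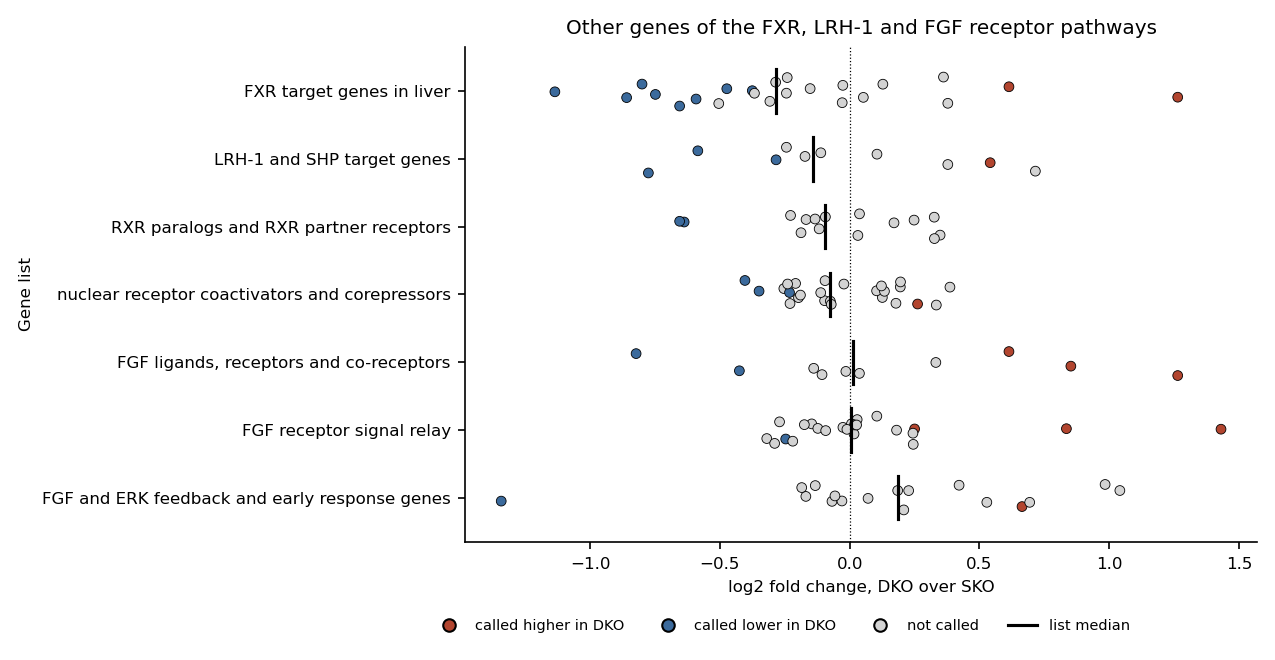
Log2 fold change of DKO over SKO (horizontal axis) for each tested gene of 7 pathway lists, with 1 point per gene, red for called higher, blue for called lower, grey for not called, and a bar at the list median; some genes are in 2 lists. The FXR target list, which pools induced and repressed genes, lies mostly left of 0 (median -0.29), and the FGF relay genes sit around 0 (median 0.01).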

How the data were processed

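Total liver RNA, extracted with Trizol and made into Illumina libraries per the labels, was sequenced in 3 DKO and 3 SKO libraries. Raw counts of reads for 54232 Ensembl genes were deposited by the authors. Tools listed in the submitters' processing notes are STAR, HTSeq 0.6.1p1, cutadapt 1.13 and DESeq2, with build mm10. No source used here gives their settings, annotation release or strand use. A symbol was found for 54079 identifiers. In GENCODE M21 no other gene overlaps any of the 8 genes. Total counts were 16966422 to 21107674.

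Groups follow the genotype labels. Replicate numbers are accession order, pair nothing, and the labels do not call the libraries separate animals. The p-values therefore reflect only variation among these libraries, which may be technical. Titles of 3 DKO libraries and 1 SKO library carry 2 numbers, whose meaning is not given. The chi-square statistic over genes, divided by its degrees of freedom, was 10.2 to 29.4 for library pairs within a group, so none looked like a repeat deposit.

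Counts were filtered with filterByExpr, scaled by TMM and tested with glmQLFit and glmQLFTest (edgeR 4.0.16, R 4.3.3, robust), Benjamini-Hochberg adjusted over 13986 genes. The SE is the log2 fold change divided by the square root of F. Alternatives were other scalings, no filter, DESeq2 1.42.0, limma-voom 3.58.1, each library left out, and the 4 libraries with 2 numbers in the title. The fit was tested on simulated data. CPM per kilobase used exon union lengths of GENCODE M21. Promoters are from RefSeq (GRCm38.p6), and all 8 genes matched. The genes and lists, the latter from general knowledge, were chosen with earlier results of these data known. Named genes are the 8, Xbp1, Cyp7a1, Cyp8b1, Fgf15, Dusp6, the 3 called genes of smallest p per list or, with none called, the 2 most abundant, and the 3 most alike in profile. Not every gene so chosen is printed, and 1 is not reported here.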

Additional observations from a re-analysis of the deposited data

How the results depend on the processing

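Of the 8 genes, SHP kept its call under all 13 alternatives. The number called was 1 with upper-quartile factors and 1 with only the 4 libraries whose titles carry 2 numbers, and 1 to 3 with a library left out. Called genes numbered 4387 (3848 higher, 539 lower) with total counts and 462 (137 higher, 325 lower) with the 4 libraries, and 1419 to 2739 (674 to 1569 higher, 745 to 1200 lower) with a library left out. The share of higher calls was 51.6%, against 65.3% with upper-quartile factors, 87.7% with total counts and 29.7% with the 4 libraries. With upper-quartile factors log2 fold changes were 0.044 for Nr1h4, -0.18 for Nr5a2, -0.25 for Klb, 0.020 for Rxra and 0.016 for Stab2. With total counts they were 0.20 for Nr1h4, -0.020 for Nr5a2, 0.44 for Fgfr4 (called), -0.10 for Klb, 0.17 for Rxra, 0.084 for Nr1i2, 0.17 for Stab2, 0.010 for Fcgr2b and 0.0084 for Eci2. Relative to the median of all genes, which those factors move by construction, values with total counts were -0.026 for Nr1h4, -0.25 for Nr5a2, 0.22 for Fgfr4, -0.32 for Klb and -0.051 for Rxra. With the 4 libraries, where the lone SKO library is assumed to vary like DKO, they were -0.25 for Nr5a2, -0.024 for Fgfr4, -0.36 for Klb, 0.031 for Nr1i2 and 0.075 for Arrdc3. Nr5a2 without a filter was -0.24, Klb was -0.32 with both DESeq2 and limma-voom, and Dusp6 was -0.041 with limma-voom. The ranges with a library left out were -0.066 to 0.026 for Nr1h4, -1.07 to -0.82 for Nr0b2, -0.28 to -0.22 for Nr5a2, 0.12 to 0.36 for Fgfr4, -0.39 to -0.23 for Klb, -0.11 to -0.0021 for Rxra, -1.35 to -0.18 for Osgin1, -0.44 to 0.34 for Dusp6, -0.22 to 0.00024 for Nr1i2 and -0.94 to 0.0078 for Arrdc3. Where a call ended in these fits, the cause was not tested; the fits hold fewer libraries. No paired analysis was possible because the labels give no replicate numbers. Counts limit Gpbar1 and Fgf15, for which a difference was not detectable at this depth.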
